A study of Homo sapiens with 2 samples.

Results

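The mitosis genes described here are 41 of the 36601 genes counted in both libraries. They were taken by symbol from a fixed list of genes whose products bring cells into mitosis, build the spindle, attach and sort the chromosomes or divide the cell, and all 41 were found and measured. Each was read as a level per library, as the share of cells with at least 1 transcript at equal depth, and as a level within mitotic cells. A cell was called mitotic when 6 or more of 8 of these genes (AURKA, PLK1, CDC20, CCNB1, UBE2C, CENPE, KIF14 and KIF20A) were detected in it. The word names this call throughout, and the stage of a cell in the cycle was not measured. A share of mitotic cells is thus the share that passed the call, not the share in mitosis. Those 8 genes chose the cells, so their levels within mitotic cells are a description, and the other 33 are the members for which the level in mitotic cells did not enter the call.

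Mitosis begins when cyclin B bound to the kinase CDK1 is freed of inhibitory phosphates by the CDC25 phosphatases. Polo-like and Aurora kinases then mature the centrosomes and correct wrong attachments, kinesin motors build and focus the spindle, and the spindle checkpoint holds back the anaphase-promoting complex (APC/C), a ubiquitin ligase, until every kinetochore is attached. The APC/C with CDC20 then marks cyclin B and securin for destruction, sister chromatids part, and the cell is cut in the middle. Most of these genes are transcribed together late in the cycle under the DREAM complex, B-MYB and FOXM1, through promoter elements known as CHR and CCAAT boxes. In the prostate they are low in resting epithelium, and in cultured lines their messages follow the dividing cells.

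RWPE1 is a line of normal human prostate epithelium immortalised with papillomavirus genes. The control was RWPE1 with an empty vector by the labels, which the study's text calls parental, and the other condition, RWPE-ERG-mAKT, was the same line with exogenous ERG, an ETS transcription factor, and AKT made constitutively active by a myristoyl anchor. By the study's methods both genes were brought in with retroviruses, ERG from the HNRNPA2B1 promoter and mAKT from a pBabe vector, with selection by drugs. Each condition was 1 droplet library of 3' ends from an input of 10000 cells. The study asked whether differences between such cultures lay in separate populations of cells or in the levels of markers. With 1 library per condition there was no replicate and no test between conditions, and every 95% interval below covers counting error only, so a gap between the libraries may be one between these 2 cultures.

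Transcripts were counted as unique molecular identifiers (UMIs). Kept were cells in which more than 2500 genes were found and mitochondrial UMIs made up less than 7.5%, namely 9967 of 12504 barcodes of RWPE1 with 192789925 UMIs and 14140 of 17355 barcodes of RWPE-ERG-mAKT with 225121037. RWPE1 cells were deeper, with a median of 16972 UMIs against 13601, and their median mitochondrial share was 5.44% against 2.73%. ERG stood at 1.44 counts per 1000000 UMIs (CPM) in RWPE1 and at 20.8 in RWPE-ERG-mAKT, whereas AKT1 stood at 22.0 and 19.1 CPM, and the count does not separate the introduced AKT from the cell's own. Both libraries carried the epithelial markers, such as KRT5 at 2081 and 2008 CPM, and the endothelial markers PECAM1, VWF, CDH5 and KDR were at 0.231 CPM or less. Of the immune markers, PTPRC was at 0.913 and 0.0400 CPM, CD3E and LYZ were under 0.1 in both, and CD68, a lysosomal protein of many cells, was at 8.73 and 13.4. Of the fibroblast markers, DCN was at 0.228 and 23.1 CPM and COL1A1 at 1.60 and 2.89, while COL1A2, COL3A1, LUM and PDGFRB were under 0.1. Of the kept barcodes, 5 of RWPE1 and 0 of RWPE-ERG-mAKT held 2 or more UMIs of microglia or choroid plexus genes, and 55 barcode sequences occurred in both libraries.

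The promoters are shown first, since the members are known for being read out together and the letters of their shared elements can be seen in them. RefSeq promoter windows were matched for 35 of the 41 members, those of AURKA, UBE2C, BUB3, TTK, TPX2 and BIRC5 not being among them. The CHR core, TTTGAA on either strand (TTCAAA in reverse), occurred within 250 bases upstream of the start in 18 of the 35 (51.4%), against 13.6% of 27303 promoters of all genes and 8.50% of 5998 promoters of genes at 20 CPM or more in a library. The CCAAT box, read as CCAAT or ATTGG, occurred in 27 of 35 (77.1%), against 33.04% and 35.96%, and 16 of 35 (45.7%) held at least 2 of them, against 10.0% of all promoters. The ETS core read as CCGGAA or TTCCGG, the class of site that ERG binds, was found in 10 of 35 (28.6%), the same share as in genes at 20 CPM or more (28.6%) and above that of all promoters (14.8%). A match of letters is a description and not a site in use. The 6 stretches below, on GRCh38.p14, were chosen because the genes behind them lay on different sides of the comparison that follows. Each is the 110-base window upstream of the RefSeq start, outside every GENCODE exon, with most of these CHR and CCAAT letters, which stand in capitals. KIF14 (chr1:200620752-200620861, minus strand), ASPM (chr1:197146695-197146804, minus strand) and KIF11 (chr10:92593020-92593129, plus strand) were lower in RWPE-ERG-mAKT. CDK1 (chr10:60778170-60778279, plus strand) and PTTG1 (chr5:160421712-160421821, plus strand) were higher, and CDC20 (chr1:43358845-43358954, plus strand) was nearly equal.
KIF14: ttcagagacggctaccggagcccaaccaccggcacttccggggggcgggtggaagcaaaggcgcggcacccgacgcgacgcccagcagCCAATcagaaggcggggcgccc
ASPM: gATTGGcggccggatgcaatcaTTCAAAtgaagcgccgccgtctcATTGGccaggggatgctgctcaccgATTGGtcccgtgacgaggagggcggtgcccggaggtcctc
KIF11: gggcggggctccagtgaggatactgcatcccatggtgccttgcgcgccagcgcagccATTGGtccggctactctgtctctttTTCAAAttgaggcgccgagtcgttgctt
CDK1: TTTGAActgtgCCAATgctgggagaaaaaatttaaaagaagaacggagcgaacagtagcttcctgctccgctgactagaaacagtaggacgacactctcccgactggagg
PTTG1: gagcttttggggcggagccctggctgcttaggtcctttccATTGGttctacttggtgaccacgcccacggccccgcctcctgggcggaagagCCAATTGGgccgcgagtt
CDC20: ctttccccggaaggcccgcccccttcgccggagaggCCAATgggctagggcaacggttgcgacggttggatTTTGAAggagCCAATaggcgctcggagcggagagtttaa
The CHR and CCAAT letters stood on both sides of the comparison. ASPM, which was lower, had 1 CHR core and 3 CCAAT boxes in its stretch, and CDC20, which was nearly equal, had 1 and 2. PTTG1, which was higher, had 3 CCAAT boxes, of which 2 overlap on opposite strands as CCAATTGG, and no CHR core. KIF14, which was lower, had 1 CCAAT box and no CHR core. KIF11, which was lower, and CDK1, which was higher, had 1 of each.

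Pooled over all kept cells, the sum of the 41 members was nearly equal in the libraries. The members made up 0.549% of all UMIs in RWPE1 (5490 CPM) and 0.554% in RWPE-ERG-mAKT (5544 CPM), with a log2 ratio of 0.014. Behind the equal sum the members went separate ways. HMMR, KIF23 and NDC80 were over 1.5-fold higher in RWPE-ERG-mAKT, and KIF14, ASPM, CDC25C, KIF11 and KIF20A were over 1.5-fold lower. The 3 of 41 that were higher compare with 19.8% of 7366 genes at 20 CPM or more in a library, and the 5 of 41 that were lower with 24.5%, so fewer members passed 1.5-fold than genes at large did. The median log2 ratio of the members was -0.05, beside -0.04 over the 7366 genes. Median-of-ratios scaling, set over all genes found in both libraries, added 0.22 to every log2 ratio and gave 8 members higher, beside 29.3% of the 7366 genes, and 4 lower, beside 17%. Over 9 choices of cells and scaling, 9 members were positive in each, 9 were negative in each and 23 took both signs. By counting error, 17 intervals lay above 0, 23 below 0 and 1, that of NUF2, reached it. A 3' count of UMIs counts molecules and does not grow with transcript length, and all levels below are CPM over the kept cells of a library unless another scale is named.

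**Figure D1:**
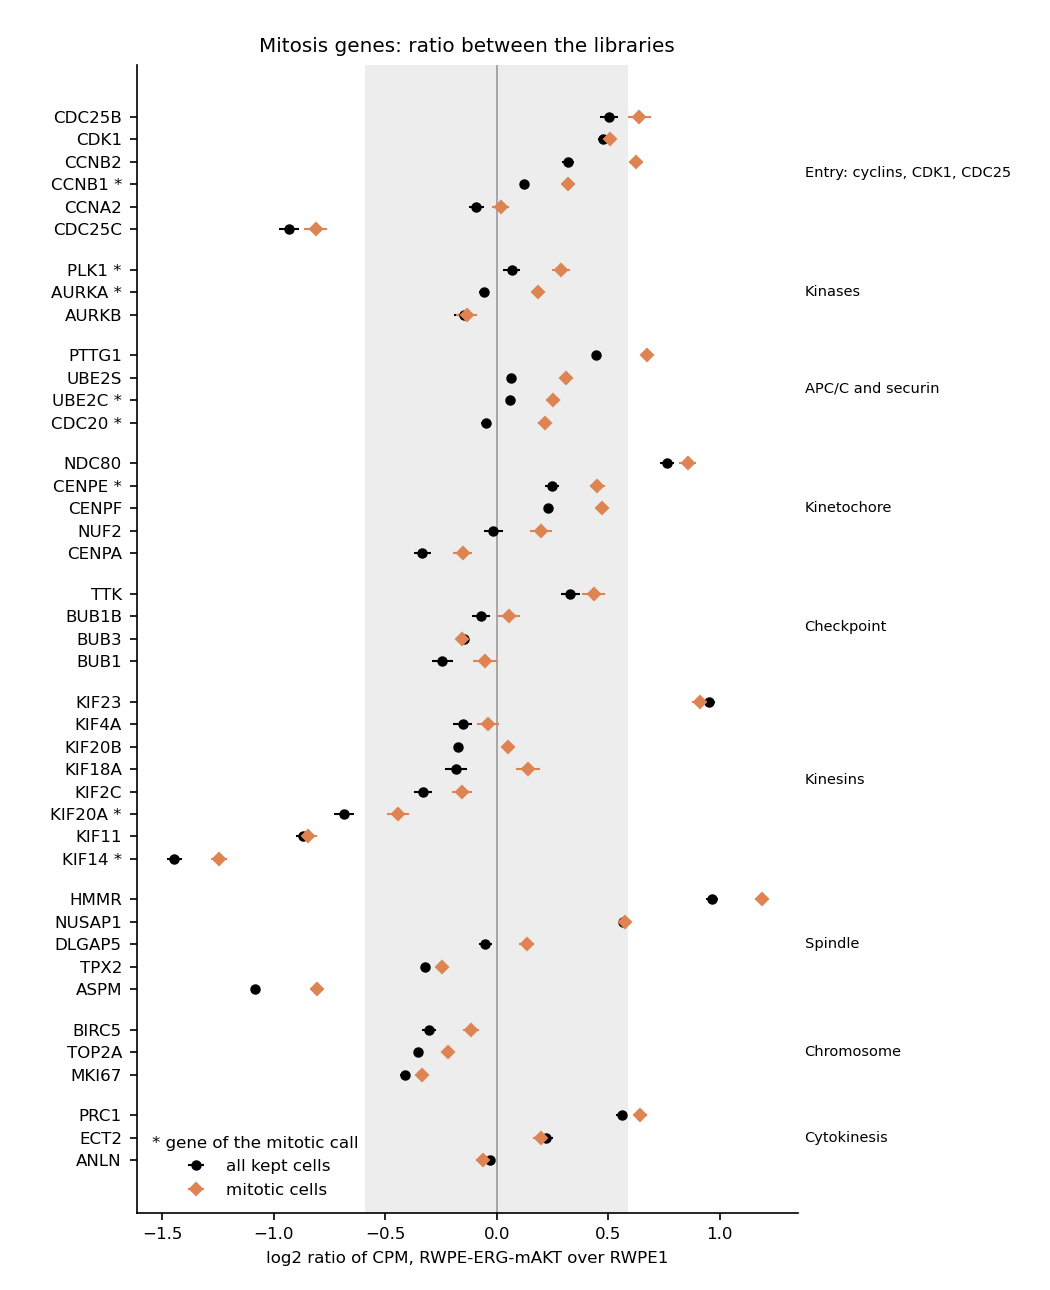
Log2 ratio of CPM (RWPE-ERG-mAKT over RWPE1) of the 41 mitosis genes, grouped by role, in all kept cells (black circles) and in mitotic cells (orange diamonds). Lines are 95% counting intervals, the grey band spans 1.5-fold each way and an asterisk marks the 8 genes of the mitotic call. The ratios in all kept cells run from -1.45 for KIF14 to 0.97 for HMMR, and most lie within the band.

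Among the genes that start mitosis, the 2 phosphatases split. CDC25B, which acts on cyclin-dependent kinases at the centrosome early in entry, stood at 40.3 CPM in RWPE1 and 57.2 in RWPE-ERG-mAKT (log2 ratio 0.51, 0.46 to 0.55). CDC25C, which completes the activation of CDK1 in the nucleus, stood at 54.4 and 28.5 CPM (log2 ratio -0.93, -0.98 to -0.89). The order of the pair was thus turned, CDC25C being the more abundant message in RWPE1 and CDC25B in RWPE-ERG-mAKT. CDK1 itself was at 125 CPM in RWPE1 and 175 in RWPE-ERG-mAKT (log2 ratio 0.48). Of its cyclins, CCNB2 was at 98.1 and 123 CPM (0.32), CCNB1 at 272 and 296 (0.12) and CCNA2, which also serves DNA replication, at 76.9 and 72.2 (-0.09). Thus the kinase and its B-type cyclins were on the higher side, all under 1.5-fold, and 1 of the 6 entry genes passed it. At 200 to 2500 genes per cell, the range read from the study's methods, CCNB1 (-0.46) and CCNB2 (-0.07) were on the lower side and CCNA2 (-0.75) was over 1.5-fold lower.

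The 3 kinases differed little. AURKA, which matures the spindle poles, was at 149 CPM in RWPE1 and 143 in RWPE-ERG-mAKT, PLK1, the polo-like kinase of entry and of cytokinesis, at 51.5 and 54.0, and AURKB, the kinase of the chromosomal passenger complex, at 48.2 and 43.5. Their log2 ratios ran from -0.15 to 0.07. The APC/C group held CDC20, its activator, with 158 and 153 CPM, and its ubiquitin-conjugating enzymes UBE2C with 298 and 311 and UBE2S with 306 and 320.4 CPM. These 3 partners of the ligase lay within 0.07 of 0 on the log2 scale. PTTG1, the securin that the ligase destroys at anaphase, was at 366 CPM in RWPE1 and 499 in RWPE-ERG-mAKT (log2 ratio 0.45, 0.43 to 0.46), so the substrate was higher where the enzymes were level.

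At the kinetochore, partners of 1 complex came apart. NDC80, which binds the microtubule end, stood at 59.2 CPM in RWPE1 and 100.5 in RWPE-ERG-mAKT (log2 ratio 0.76, 0.73 to 0.80). NUF2, with which NDC80 forms a dimer, stood at 44.2 and 43.7 CPM (log2 ratio -0.01, -0.06 to 0.03). CENPF, a large protein of the outer kinetochore, was at 325 and 381 CPM (0.23), and CENPE, the kinesin that moves chromosomes to the spindle's middle, at 70.5 and 83.7 (0.25), but both were lower at 200 to 2500 genes, with -0.56 and -0.82. CENPA, the histone variant that marks the centromere, was at 59.3 and 47.1 (-0.33). Of the checkpoint genes, the kinase TTK, which starts the signal at unattached kinetochores, was at 37.4 CPM in RWPE1 and 47.0 in RWPE-ERG-mAKT (0.33). The others were on the lower side, with log2 ratios of -0.07 for BUB1B, the checkpoint protein BubR1, -0.15 for BUB3, and -0.24 for the kinase BUB1. None of the checkpoint genes passed 1.5-fold.

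Of the 8 kinesins outside the kinetochore group, 7 were on the lower side, though KIF18A (0.04), KIF20B (0.05) and KIF4A (0.07) were above 0 with median-of-ratios scaling. KIF14, a motor of cytokinesis, had the lowest ratio of all members, with 116 CPM in RWPE1 and 42.7 in RWPE-ERG-mAKT (log2 ratio -1.45, -1.48 to -1.41). KIF11, the Eg5 motor that pushes the spindle poles apart, was at 107 and 58.8 CPM (-0.87, -0.90 to -0.84), and KIF20A, a motor of the central spindle, at 46.3 and 28.8 (-0.68, -0.73 to -0.64). The exception was KIF23, the motor of the centralspindlin complex that sets the place of the cut, with 63.5 CPM in RWPE1 and 123 in RWPE-ERG-mAKT (0.95, 0.92 to 0.98). Motors of the same step, cytokinesis, thus lay at both ends of the list. The rest were nearer to 0, at -0.33 for KIF2C, which takes microtubules apart, -0.18 for KIF18A, which trims microtubule ends at kinetochores, -0.17 for KIF20B and -0.15 for KIF4A, the chromokinesin.

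The spindle genes held the other ends of the range. HMMR, a spindle-pole protein that also serves as a hyaluronan receptor, was at 89.8 CPM in RWPE1 and 175 in RWPE-ERG-mAKT (log2 ratio 0.97, 0.94 to 0.99). ASPM, which focuses microtubules at the poles and sets the spindle's orientation, was at 314 and 148 CPM (-1.08, -1.10 to -1.06). Both are proteins of the spindle pole, and their messages were exchanged in rank, ASPM leading HMMR in RWPE1 and following it in RWPE-ERG-mAKT. NUSAP1, which bundles microtubules near chromatin, was at 184 and 272 CPM (0.57), just inside 1.5-fold. TPX2, the activator of AURKA on the spindle, was at 327 and 262 CPM (-0.32) while AURKA itself was level, and DLGAP5, which stabilises kinetochore fibres, was at 86.8 and 83.8 (-0.05).

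The chromosome group was on the lower side under every scaling, and none of its 3 genes passed 1.5-fold. In cells of 7.5% or more mitochondrial UMIs, which were not kept, TOP2A and MKI67 were at 0.06 and 0.14 on the log2 scale, and at 200 to 2500 genes at -1.02 and -0.95. The cells of high mitochondrial share numbered 1575 in RWPE1 and only 107 in RWPE-ERG-mAKT, and those of 200 to 2500 genes 362 and 2775. TOP2A, the topoisomerase that untangles sister chromatids, was at 298 CPM in RWPE1 and 233 in RWPE-ERG-mAKT (log2 ratio -0.35). MKI67, whose protein coats mitotic chromosomes and is the Ki-67 of pathology, was at 251 and 189 (-0.41), and BIRC5, the survivin of the passenger complex, at 94.5 and 76.6 (-0.30). In cytokinesis, PRC1, which bundles the central spindle, was at 115 and 170.3 CPM (0.56), ECT2, which turns on RhoA under centralspindlin, at 76.3 and 88.9 (0.22), and ANLN, the scaffold of the contractile ring, at 114 and 111 (-0.03). PRC1 and KIF23, which meet in the central spindle, were both higher, whereas KIF14, which binds PRC1, was lower.

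The share of cells with at least 1 UMI was compared after each cell was thinned to 5000 UMIs, which 9967 cells of RWPE1 and 14134 of RWPE-ERG-mAKT reached. Shares were higher in RWPE-ERG-mAKT for 24 of the 41 members, and the share over all genes at this depth was not counted. Some intervals overlapped, as for DLGAP5 (26.6% and 26.7%) and CENPF (56.4% and 56.5%) on the higher side. On the lower side those of AURKA did (33.1% and 31.9%). ASPM was found in 56.6% (55.6 to 57.5) of RWPE1 cells and 36.8% (35.98 to 37.6) of RWPE-ERG-mAKT cells, and KIF14 in 27.2% and 15.3%. KIF23 was found in 21.1% (20.3 to 21.9) and 38.5% (37.7 to 39.3), NUSAP1 in 44.5% and 58.3%, and HMMR in 26.2% and 38.2%. For these 5 genes the share differed in the same direction as the level. PTTG1 was the most widespread member in both libraries, in 70.1% and 78.8% of cells, and the least widespread were KIF18A in RWPE1 with 13.5% and KIF20A in RWPE-ERG-mAKT with 11.1%. Without thinning the deeper library showed more positive cells and only 12 members stood higher in RWPE-ERG-mAKT, among them HMMR with 50.2% and 58.3%.

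**Figure D2:**
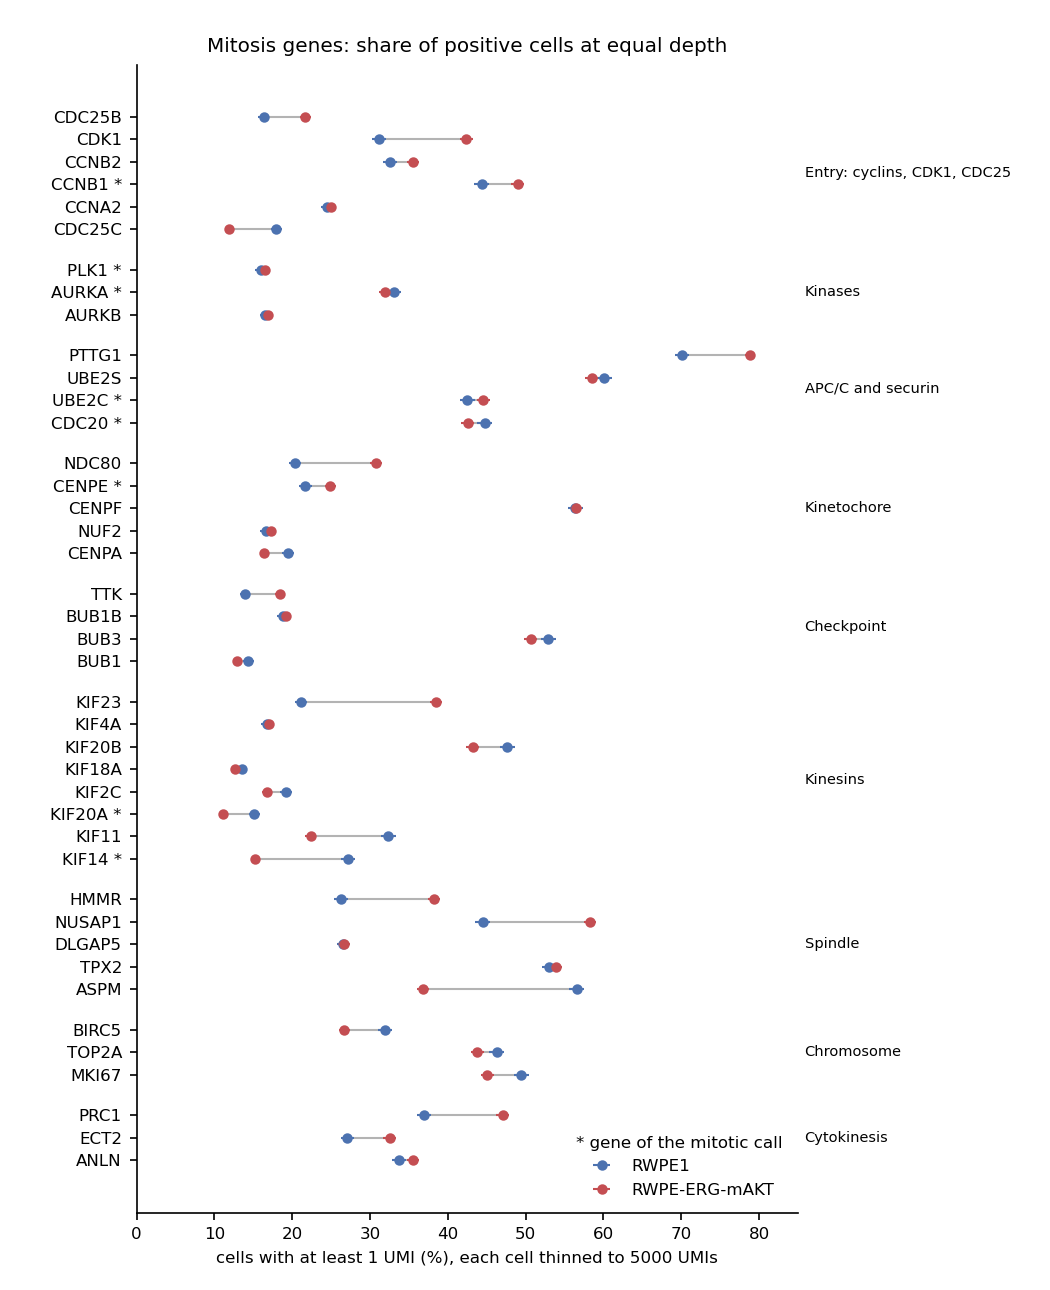
Share of cells with at least 1 UMI of each mitosis gene after thinning to 5000 UMIs per cell, in RWPE1 (blue) and RWPE-ERG-mAKT (red), with exact binomial 95% intervals. ASPM is at 56.6% and 36.8%, and KIF23 at 21.1% and 38.5%, while AURKB and KIF4A nearly coincide.

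As a background for these shares, cells with transcripts of squamous genes were used, though whether these cells had left the cell cycle was not tested. Cells with 5 or more squamous UMIs at that depth numbered 54 in RWPE1 and 107 in RWPE-ERG-mAKT, with median depths of 14244.5 and 17418 UMIs against 16980 and 13588 in the rest. In RWPE1 all 41 members were found in a smaller share of them than of all cells, with a median over members of 12.96% against 27.2%. In RWPE-ERG-mAKT 40 of 41 were, with a median of 20.6% against 31.9%, the exception being CDC25B with 24.3% against 21.7%. The share of all genes found less often in squamous cells was not counted, so these counts are not shown to be particular to the members. The squamous genes themselves differed between the libraries, with SPRR2D at 0.612 and 9.37 CPM and SPRR3 at 2.74 and 0.786. The 2 sets of cells are thus not a like background. Of these squamous cells 4 and 3 were themselves called mitotic, and PTTG1 was found in 29.6% and 65.4% of them. The difference in KIF23 was present in them too, at 5.56% (1.16 to 15.4) and 30.8% (22.3 to 40.5), and also in cells with none of the 8 call genes, at 8.71% and 23.7%. ASPM was found in 29.7% and 14.0% of the cells with none of the 8, but in the squamous cells in 20.4% (10.6 to 33.5) and 23.4% (15.7 to 32.5), where the intervals overlapped and the direction was turned. Depth and the mitochondrial share also differed between the libraries, and their part in these shares was not tested.

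At the depth deposited, 3573 of 9967 RWPE1 cells (35.8%, 34.9 to 36.8) and 4081 of 14140 RWPE-ERG-mAKT cells (28.9%, 28.1 to 29.6) were called mitotic. The call counts detected genes, and mitotic cells held a median of 22046 and 18434 UMIs and the others 15243 and 12126. A cell's depth and its RNA content cannot be told apart in these counts. Thinning to 10000 UMIs left out 579 shallower cells of RWPE1 and 3744 of RWPE-ERG-mAKT, of which 14.7% and 11.1% were called mitotic as deposited. In the cells that remained, the shares after thinning were 25.2% (24.3 to 26.1) and 24.4% (23.6 to 25.2). At 5000 UMIs, where 0 and 6 cells were left out, the shares were 13.4% and 11.0%. At 2000 UMIs they were 2.34% and 2.06%. The call also contains KIF14 and KIF20A, which were lower in RWPE-ERG-mAKT. With these 2 left out and 5 or more of the remaining 6 genes asked for, an alternative chosen after the data were seen, the shares were 35.7% and 31.8% at the deposited depth. At 10000 UMIs they were 24.5% and 27.6%, and at 5000 UMIs 12.4% and 14.0%, so the direction turned with the genes asked for. All 8 genes were detected in 17.9% of RWPE1 cells and 11.4% of RWPE-ERG-mAKT cells, and none of them in 5.48% and 6.07%.

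**Figure D3:**
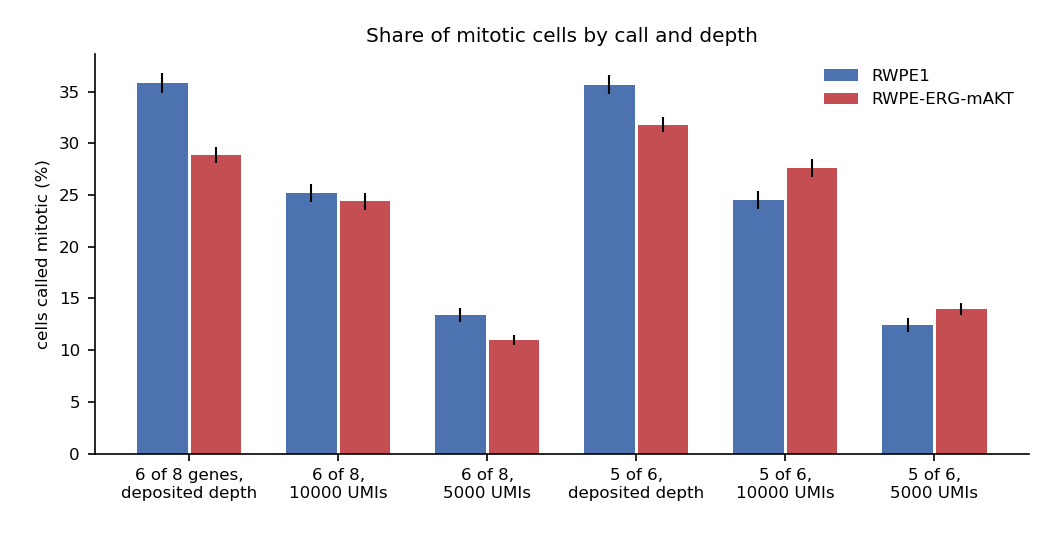
Percent of kept cells called mitotic in RWPE1 (blue) and RWPE-ERG-mAKT (red) by 6 or more of the 8 genes and by 5 or more of 6 genes without KIF14 and KIF20A, at the deposited depth and after thinning to 10000 and 5000 UMIs per cell. Bars start at 0 and lines are exact binomial 95% intervals. The bars for 10000 UMIs leave out 579 shallower cells of RWPE1 and 3744 of RWPE-ERG-mAKT. RWPE1 is higher by the 8-gene call, at 35.8% and 28.9% as deposited, and lower by the 6-gene call once thinned, at 24.5% and 27.6% for 10000 UMIs.

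All 41 members were higher in mitotic cells than in the other cells of the same library, which for the 8 call genes is the choice of the cells. The share of all genes that were higher in mitotic cells was not counted. Outside the call, the most concentrated in RWPE1 were TOP2A with a 6.91-fold higher level, HMMR with 6.39-fold and CENPA with 6.23-fold, and in RWPE-ERG-mAKT HMMR with 6.69-fold. BUB3, which also serves outside mitosis, was the least concentrated in both, with 1.75-fold and 1.57-fold, and PTTG1 followed with 1.96-fold in RWPE1. KIF23 was less tied to mitotic cells in RWPE-ERG-mAKT, with 2.66-fold against 3.99-fold in RWPE1, and ASPM more, with 5.18-fold against 3.91-fold.

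Within mitotic cells 19 of the 33 members outside the call were on the higher side, against 13 in the whole library. In the cells not called mitotic 23 were, so this was not particular to mitotic cells. The share of all genes on the higher side was not counted. Of these 33, 7 were over 1.5-fold higher in RWPE-ERG-mAKT, where 19.4% of 7331 genes at 20 CPM or more were. Another 3 were lower, where 24.5% of all genes were, and the median log2 ratio of the 33 was 0.06, beside -0.05 over all genes. This median turned to -0.012 by the 6-gene call and was 0.26 with median-of-ratios scaling. HMMR was at 168 CPM in RWPE1 mitotic cells and 382 in those of RWPE-ERG-mAKT (log2 ratio 1.19, 1.16 to 1.22), KIF23 at 108 and 203 (0.91) and NDC80 at 101 and 183 (0.86). PTTG1 (0.67), PRC1 (0.64), CDC25B (0.64) and CCNB2 (0.62), which were under 1.5-fold in the library, were past it here. KIF11 was at 173 and 96.2 CPM (-0.85), CDC25C at 97.9 and 55.8 (-0.81) and ASPM at 532 and 305 (-0.80). NUSAP1 (0.58) fell just short of 1.5-fold. Of the call genes, KIF14 was at 229 and 96.6 CPM (-1.25) and KIF20A at 93.0 and 68.3 (-0.44), while the other 6 were on the higher side, from 0.19 for AURKA to 0.45 for CENPE.

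In mitotic cells thinned to 10000 UMIs, of which there were 3488 and 3667, the typical counts per cell were small. For ASPM the median cell held 5 UMIs in RWPE1 and 3 in the other library, and for HMMR 1 and 3. Median counts of KIF23 were 1 and 2, and those of KIF14 2 and 1. ASPM was present in 95.5% and 85.5% of these cells and HMMR in 71.6% and 88.8%, so most mitotic cells of both libraries carried both messages in differing amounts. PTTG1 went from a median of 5 to 8 UMIs and CENPF from 5 to 7.

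In cells that were not called mitotic, 34 members reached 20 CPM in a library. Of them 7 were over 1.5-fold higher in RWPE-ERG-mAKT, beside 20.7% of 7351 genes, and 2 were lower, beside 24.9%. KIF23 was at 27.1 CPM in RWPE1 and 76.5 in RWPE-ERG-mAKT (log2 ratio 1.498, 1.44 to 1.56), a larger ratio than within mitotic cells. HMMR was at 26.2 and 57.1 CPM (1.12), NDC80 at 25.05 and 53.4 (1.09), NUSAP1 at 77.5 and 159.8 (1.04) and CDK1 at 48.3 and 95.8 (0.99). ASPM was at 136 and 58.8 CPM (-1.21) and KIF14, a call gene, at 23.9 and 11.8 (-1.02). Summed, the 33 members outside the call stood at 1974 and 2329.9 CPM in these cells and at 7203 and 8098 CPM in mitotic cells.

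The libraries were also compared among cells thinned to 10000 UMIs, 9388 of RWPE1 and 10396 of RWPE-ERG-mAKT, which leaves out the shallow cells. The 33 members outside the call made up 40.02 UMIs per 10000 in RWPE1 and 45.1 in RWPE-ERG-mAKT, a difference of 5.09. How this difference divides depended on the call. By the 8-gene call the share of mitotic cells contributed -0.55 of it, levels within mitotic cells 3.005 and levels within the other cells 2.63. By the 6-gene call, an alternative chosen after the data were seen, the share contributed 2.07, mitotic cells 1.82 and the others 1.198, so the sign of the part from the share turned. For ASPM the difference of -1.35 UMIs per 10000 came to -0.64 from within mitotic cells and -0.67 from within the others by the 8-gene call, and to -0.74 and -0.74 by the 6-gene call. For HMMR, with a difference of 0.98, the mitotic part was 0.70 and the other 0.30 by the 8-gene call and 0.65 and 0.24 by the 6-gene call. For KIF23, with 0.70, they were 0.29 and 0.43, and then 0.27 and 0.39.

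The level of a member was also read by how many of the 8 call genes were detected in a cell at 5000 UMIs, which orders cells from none to many without a threshold. ASPM went from 0.823 UMIs per 10000 at none of the 8 to 7.74 at 6 or more in RWPE1, and from 0.322 to 4.82 in RWPE-ERG-mAKT. HMMR went from 0.146 to 2.45 and from 0.324 to 5.91, and KIF23 from 0.193 to 1.52 and from 0.591 to 2.73. KIF11 went from 0.367 to 2.21 in RWPE1 and from 0.262 to 1.37 in RWPE-ERG-mAKT. In each of the 7 classes ASPM and KIF11 were lower, and HMMR, KIF23 and NDC80 higher, in RWPE-ERG-mAKT. CDC25C began nearly level, at 0.0904 and 0.0885 UMIs per 10000, and came apart toward 1.37 and 0.836. The summed genes of S phase stood at 26.1 and 30.7 UMIs per 10000 at none of the 8. They were higher at 1 of the 8, with 27.5 and 33.6, and lowest at 6 or more, with 17.1 and 17.6.

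**Figure D4:**
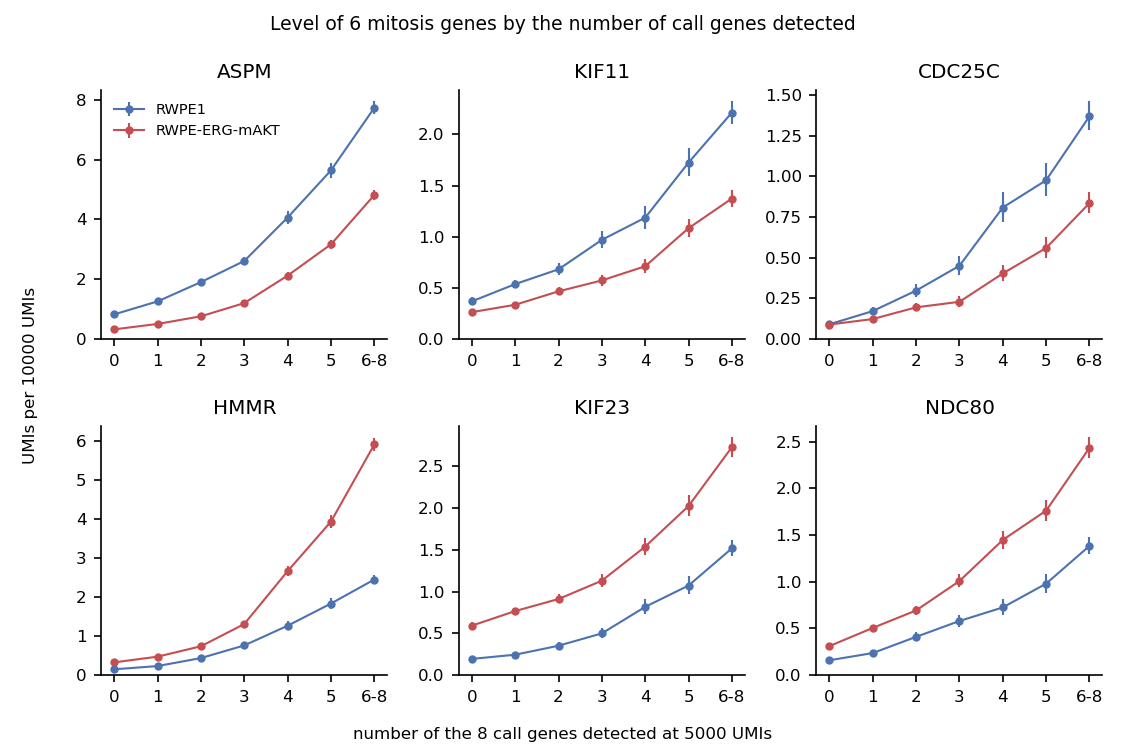
UMIs per 10000 UMIs of ASPM, KIF11, CDC25C, HMMR, KIF23 and NDC80 in cells grouped by the number of the 8 call genes detected after thinning to 5000 UMIs, for RWPE1 (blue) and RWPE-ERG-mAKT (red), with exact Poisson 95% intervals. All 6 genes climb with the number detected in both libraries. At 6 or more genes ASPM reaches 7.74 (RWPE1) and 4.82, while HMMR reaches 2.45 (RWPE1) and 5.91.

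The genes that lie next to some members on the chromosome differed along with them. For each member, the genes within 5 Mb on either side with 20 CPM or more in a library, other than members, were read by the coordinates of GENCODE 29 on GRCh38. KIF14, on the long arm of chromosome 1 (chr1:200551497-200620734), had 33 such neighbours, with a median log2 ratio of -1.09, and 31 of them were below 0. ASPM, on the same arm (chr1:197084128-197146694), had 20 with a median of -0.84, and KIF11 (chr10:92593286-92655395) had 39 with -0.75. Low neighbours also stood around MKI67 (-0.89), BUB3 (-0.85) and KIF20B (-0.76), all on chromosome 10, of which BUB3 and KIF20B were themselves at -0.15 and -0.17. These 6 were the members whose neighbours lay past 1.5-fold on the lower side, and CDC25B on chromosome 20, at 0.61, was the only one with neighbours past it on the higher side. By contrast the neighbours of CDC25C (54 genes, 0.00) and of KIF20A (53 genes, 0.02) were level, as were those of HMMR (11 genes, 0.06) and KIF23 (41 genes, 0.14). NDC80's were at 0.42 (15 genes). Over the 41 members the ratio of the member and the median of its neighbours had a Pearson r of 0.63 and a Spearman rho of 0.57, where 14 members share neighbours with another member and all ratios come from the same 2 libraries. Relative to its neighbours KIF14 was 0.35 lower on the log2 scale, ASPM 0.24 lower and KIF11 0.12 lower, whereas CDC25C was 0.93 lower and HMMR 0.91 higher. DNA copy number was not measured, and the part of the neighbourhood in these ratios was not tested.

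**Figure D5:**
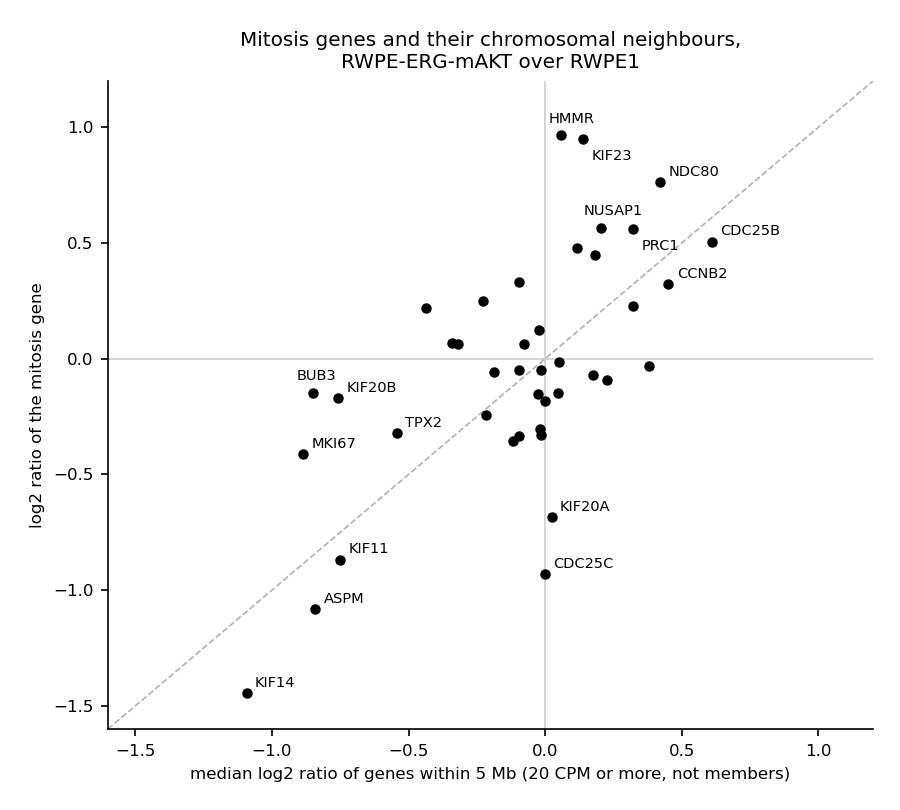
Log2 ratio (RWPE-ERG-mAKT over RWPE1) of each of the 41 mitosis genes against the median log2 ratio of other genes within 5 Mb that reached 20 CPM in a library. The dashed line marks equality. KIF14, ASPM and KIF11 lie low with their neighbours, at -1.09, -0.84 and -0.75, whereas CDC25C, KIF20A, HMMR and KIF23 lie far from neighbours near 0.

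Other genes of the same machinery were read from lists, with counts over the genes at 20 CPM or more in a library and medians over all genes of a list. Of 16 further subunits and regulators of the APC/C and checkpoint, 2 were over 1.5-fold higher and 1 lower, with a median log2 ratio of -0.04. The largest were MAD2L1BP, which dismantles the checkpoint complex, at 12.4 CPM in RWPE1 and 28.0 in RWPE-ERG-mAKT, the subunit CDC26 at 82.2 and 151, and ANAPC7 at 42.4 and 26.5. Of 19 genes of cohesin and condensin, 4 were higher and 1 lower (median -0.07), led by SGO1, the protector of centromeric cohesion, at 17.9 and 49.5 CPM, NCAPH2 at 9.55 and 21.9, and NCAPG at 34.5 and 66.9. The kinetochore and centromere list had 5 of 26 higher and 1 lower (median 0.13). SPC24, which sits in the complex of NDC80 and NUF2, was at 28.8 and 14.9 CPM. SPC25 of the same complex was at 48.3 and 41.4 CPM (log2 ratio -0.22). Thus NDC80 was higher, NUF2 level, and SPC24 and SPC25 lower, SPC25 by less than 1.5-fold. CENPW was at 65.1 and 130.0 CPM and CENPM at 20.04 and 38.3. The counts compare with 19.8% higher and 24.5% lower over all genes at 20 CPM or more.

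The list of transcription factors that act on mitotic genes had 0 of 15 higher and 4 lower, again beside 19.8% and 24.5%, with a median of -0.34. FOXM1 went the other way, from 32.0 CPM in RWPE1 to 41.3, and MYBL2, which encodes B-MYB, was nearly level at 76.9 and 80.4. RBL2, the p130 of the DREAM complex, was at 30.9 CPM in RWPE1 and 15.2 in RWPE-ERG-mAKT, LIN9 at 59.7 and 30.2, and LIN54, the subunit that reads the CHR box, at 25.7 and 15.5. Of 13 genes that control entry, 3 were higher and 0 lower (median 0.06), namely CDKN1A, the inhibitor p21, at 32.9 and 104 CPM, GTSE1 at 24.2 and 66.1, and GADD45A at 62.7 and 119.7. Of 37 S-phase genes, 9 were higher and 3 lower, with a median of 0.22, led by SLBP, which binds histone messages, at 59.8 and 145 CPM, CLSPN at 52.5 and 121, and CDC45 at 17.6 and 38.0.

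Within RWPE-ERG-mAKT, cells with an ERG UMI were set beside those without at equal depth. At 5000 UMIs, 12.3% (10.6 to 14.3) of 1281 cells with ERG and 10.8% (10.3 to 11.4) of 12853 cells without were mitotic, and at 10000 UMIs 25.7% of 1805 and 24.1% of 8591. The 41 members made up 57.7 and 52.3 UMIs per 10000 at the lower depth, and 60.1 and 55.7 at the higher. The intervals of the shares overlapped at both depths. ERG was sparse, so a cell without an ERG UMI is not shown to lack ERG.

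Some members share sequence with other loci, which can move reads between them. By name, 11 members have annotated copies, among them UBE2C with 4, PTTG1 with 2 and AURKA with 2. NUSAP1, CCNB2 and CENPA overlap another counted gene on the same strand, and 14 members overlap one on the opposite strand, HMMR and PRC1 their own antisense RNAs among them.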

How the data were processed

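Single-cell RNA of RWPE1 and RWPE-ERG-mAKT was measured by 10x Genomics Chromium 3' chemistry, 1 library each. The deposited matrices hold raw UMI counts per gene and barcode, for which the submitters' processing notes name Cell Ranger 7.1.0 and the build hg38. Cells with over 2500 genes and under 7.5% mitochondrial UMIs were kept here, and no doublets were removed. The study's own limits, read as 200 to 2500 genes, left 362 and 2775 cells and served as an alternative. UMIs were summed per library as CPM with exact Poisson intervals, ratios with exact conditional intervals and shares with Clopper-Pearson intervals. Cells were thinned without replacement (seed 1), and shallower cells were left out. Differences were split by the Kitagawa decomposition. Named are all 41 members, up to 3 genes with the largest ratio at 20 CPM or more of each other list, ERG, AKT1 and markers. FOXM1, MYBL2 and SPC25 were named after their values were seen. A list's median adds 1 CPM, over genes with at least 10 UMIs. Coordinates came from GENCODE 29 (34616 of 36601 identifiers) and promoters from RefSeq. Members and lists were chosen with earlier results of these data known. Functions were tested on simulated data. Figures were drawn with matplotlib 3.10.9, and values computed with scipy 1.17.1, pandas 2.3.3 and numpy 2.4.6 under Python 3.11.15.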

Additional observations from a re-analysis of the deposited data

How the results depend on the processing

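Counts and medians moved with the cells and the scaling. The median log2 ratio of the 41 members, -0.05, was -0.46 at 200 to 2500 genes, -0.021 with no mitochondrial limit and -0.12 on totals without mitochondrial and ribosomal protein genes. It turned to 0.090 in cells of 7.5% or more mitochondrial UMIs, 0.17 with median-of-ratios scaling and 0.027 with each cell scaled to its own total. Cells of 7.5% or more mitochondrial UMIs numbered 1575 in RWPE1 and only 107 in RWPE-ERG-mAKT. Members over 1.5-fold higher, 3, numbered 5 with no mitochondrial limit, 9 in the cells of high mitochondrial share, 8 by median of ratios, 6 with cells scaled singly, 9 at a looser fold limit and 0 at 2-fold. Members lower, 5, numbered 13 at 200 to 2500 genes, 9 at the looser limit and 2 at 2-fold. Of these settings, the share over all genes was counted only at the main one (19.8% higher, 24.5% lower) and by median of ratios (29.3% higher, 17% lower). The other counts of members thus have no background beside them.

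Mitotic cells made up 44.9% of RWPE1 and 37.6% of RWPE-ERG-mAKT for 5 or more genes and 27.0% and 20.6% for 7 or more. They were 13.4% and 11.0% at 5000 UMIs, 25.2% and 24.4% at 10000 UMIs, 5.52% and 3.604% at 200 to 2500 genes, 34.8% and 24.7% at 200 or more genes, and 23.7% and 15.9% in cells of high mitochondrial share. The cells of high mitochondrial share numbered 1575 and 107. RWPE1 had 34.2% mitotic cells with no mitochondrial limit, and RWPE-ERG-mAKT 31.8% by the 6-gene call. In mitotic cells the median, 0.06, was 0.011 for 5 or more genes, 0.16 after thinning to 5000 UMIs, 0.26 by median of ratios, which put 11 members higher, 0.10 with cells scaled singly and 0.10 after thinning to 10000 UMIs. It turned to -0.012 by the 6-gene call. The share of all genes that were higher in mitotic cells by median of ratios, beside the 11 members, was not counted. Unthinned, 12 members had the higher share in RWPE-ERG-mAKT. Outside mitotic cells the median, 0.15, was 0.36 in cells with none of the 8 genes. The cause of these moves was not tested. The 6-gene call and the level after thinning to 10000 UMIs were chosen after the data were seen. No paired analysis was possible because each condition had 1 library, and no replicate could be left out.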
